A study of Mus musculus with 12 samples.

Results

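The genes described here are 9 genes of the epithelial tight junction, the claudins Cldn2, Cldn3, Cldn4, Cldn7, Cldn15 and Cldn23, the membrane proteins occludin (Ocln) and junctional adhesion molecule A (F11r), and the scaffold protein ZO-1 (Tjp1). They were chosen by name, out of 55414 genes in the deposited count table, with results of these libraries already known, so that the levels and differences in the same 12 libraries were open to view at the choice, and which comparison weighed in it is not recorded. For that reason the values of the 9 genes are given as a description, with their standard errors and with whether they passed the threshold used for all genes, but without p-values. All 9 genes passed the filter on low counts, as did 13057 genes in all.

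The libraries are bulk RNA-seq of cells sorted from crypts of the small intestine of C57BL/6J mice. There are 3 libraries each of WT Paneth cells, WT non-Paneth cells, GRKO Paneth cells and GRKO non-Paneth cells. GRKO mice, which the submitters call GRvillinKO, lack the glucocorticoid receptor, and the name points to villin, a gene active throughout the intestinal epithelium, as the driver of the deletion. Paneth cells were sorted in the study as CD24 and cKIT positive cells with medium to high side scatter, negative for CD31, CD45 and TER119. The methods give 1 range of age for all mice of the study, which were young adults, and none for single libraries. How non-Paneth cells were gated, whether the controls carried floxed alleles or Cre, and whether animals were pooled are not stated in the labels or methods used. Nothing in the labels says that the 3 libraries of a group came from separate mice, so the errors measure the spread between these libraries. In bulk samples, fewer cells of a type and less RNA per cell cannot be told apart.

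Tight junctions seal the space between neighbouring epithelial cells and set which solutes pass through it. Claudins are membrane proteins whose extracellular loops meet those of the next cell. Some of them form channels for small ions, among them Cldn2, known from crypts, and Cldn15, known from the small intestine, while others, such as Cldn3, tighten the barrier. Occludin and F11r lie in the same strands or beside them, and ZO proteins tie the strands to actin.

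Levels are given as CPM, the counts of a gene scaled to the size of its library, after TMM scaling, which divides each library by a factor that takes differences in composition into account. Library totals lay between 11126297 and 15910292 counts. The TMM factors lay between 0.656 and 0.826 in the 6 Paneth libraries, where a few genes of antimicrobial proteins fill a large part of the counts. They lay between 1.20 and 1.22 in WT non-Paneth and between 1.46 and 1.4998 in GRKO non-Paneth libraries. The factors of the non-Paneth libraries thus did not overlap between the genotypes, and the cause of this was not tested. The gene of the glucocorticoid receptor, Nr3c1, had 110 to 131 TMM-scaled CPM in WT non-Paneth cells and 13.1 to 24.5 in GRKO non-Paneth cells, and 40.9 to 54.1 and 5.82 to 15.4 in the Paneth cells of the same order of genotypes. The sum of 5 Paneth cell markers was at least 355417 TMM-scaled CPM in each Paneth library and at most 1043 in each non-Paneth library. Markers of endothelial and of stromal cells summed to at most 0.446 and 0.380 TMM-scaled CPM in any library. The sum of 4 leukocyte markers was 14.3 to 15.8 in WT Paneth and 10.1 to 35.5 in GRKO Paneth libraries, and at most 6.12 in non-Paneth libraries. Of these, Ptprc, the gene of CD45, against which the Paneth cells were sorted, had 0.285, 4.08 and 5.68 TMM-scaled CPM in WT Paneth and 19.0, 28.8 and 2.08 in GRKO Paneth libraries. Xist, which is transcribed in female cells, was found in both WT libraries numbered 2 (193 and 215 TMM-scaled CPM) and in no other library above 1. For the members, results that rest on these 2 libraries are given without them where the call changes. For other genes this is not given gene by gene.

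Cldn4 and Cldn3 lie close together on chromosome 5, with 2 annotated genes, Gm71248 and Gm72861, wholly between them. Each has a single exon in the GENCODE vM39 annotation of GRCm39. Cldn4 lies at chr5:134973973-134975788 on the minus strand and Cldn3 at chr5:135015068-135016326 on the plus strand, with 39280 bases between their start sites and transcription pointing away from each other. Cldn15 lies farther along the same chromosome, at chr5:136995470-137004712. The other members lie elsewhere, Cldn2 at chrX:138701480-138712135, Cldn7 at chr11:69852648-69858711, Cldn23 at chr8:36291866-36293713, Ocln at chr13:100630334-100689535, Tjp1 at chr7:64945898-65177529 and F11r at chr1:171265092-171292958. On the opposite strand, Cldn3 shares 72.0% of its exonic bases with Wbscr25 and Cldn7 shares 15.7% with Elp5. The library kit marks the strand, but the column of counts taken from it is not stated, so reads of these pairs may not have been told apart. Wbscr25 summed to at most 14 counts over the 3 libraries of any group.

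The promoters of Cldn2, Cldn3 and Cldn4 are printed because Cldn2 and Cldn4 moved in opposite directions in GRKO non-Paneth cells, while Cldn3, which lies close to Cldn4, did not pass the threshold. Each run holds the 250 bases before the start of the canonical transcript in GRCm39, in the direction of transcription, at chrX:138701230-138701479 (plus strand), chr5:135014818-135015067 (plus strand) and chr5:134975789-134976038 (minus strand). Capitals mark exact matches on either strand to 4 short motifs, the hexamer TGTTCT of the glucocorticoid response element, the AP-1 site TGANTCA, the CDX site TTTATNG and the GC box GGGCGG.
Cldn2: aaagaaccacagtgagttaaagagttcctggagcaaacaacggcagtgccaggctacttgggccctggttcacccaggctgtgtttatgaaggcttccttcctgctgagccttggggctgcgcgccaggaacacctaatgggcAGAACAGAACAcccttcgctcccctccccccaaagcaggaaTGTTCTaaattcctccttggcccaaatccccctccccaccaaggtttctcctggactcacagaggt
Cldn3: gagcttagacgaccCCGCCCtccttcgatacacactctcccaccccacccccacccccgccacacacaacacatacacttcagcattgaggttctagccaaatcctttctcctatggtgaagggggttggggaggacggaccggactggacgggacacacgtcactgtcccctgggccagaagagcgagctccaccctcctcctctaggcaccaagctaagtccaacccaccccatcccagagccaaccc
Cldn4: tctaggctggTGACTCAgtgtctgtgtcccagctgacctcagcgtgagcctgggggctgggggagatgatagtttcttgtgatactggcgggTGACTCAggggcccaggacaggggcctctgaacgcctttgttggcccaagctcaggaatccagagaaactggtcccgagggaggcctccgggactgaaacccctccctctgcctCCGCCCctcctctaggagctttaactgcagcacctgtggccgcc

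In the Cldn2 promoter the capitals are 3 copies of the hexamer TGTTCT, with first bases 107, 102 and 66 bases before the start, of which the first and the second, read on the opposite strand, overlap by 1 base. No other member had this hexamer in its window, which 11.6% of 13035 promoters of tested genes held. In the Cldn4 promoter they are 2 AP-1 sites, with first bases 240 and 158 bases before the start, and 1 GC box. The promoters of Cldn15 and F11r held 1 AP-1 site each, so that 3 of the 9 members had one, against 4.60% of the promoters. The match in the window of Cldn3 is a GC box, which 7 of the 9 members and 48.2% of the promoters held. The palindromic glucocorticoid response element, GNACA and TGTNC set 3 bases apart, was in no member's window and in 0.245% of the promoters. The CDX site, searched only in the form TTTATNG, was in no member's window and in 7.54% of the promoters. A match describes these letters only, and a missing match says nothing of other forms of a site or of sequence outside the window.

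The 9 genes covered a wide range of levels. Per kilobase of exonic length, the order in WT non-Paneth cells was Cldn7 (372 ± 23.6 TMM-scaled CPM per kb, SD, n = 3), Cldn3 (272 ± 6.09), Cldn15 (217 ± 7.25), F11r (55.6 ± 4.64), Cldn2 (50.2 ± 4.10), Cldn4 (47.3 ± 8.89), Ocln (14.1 ± 0.512), Cldn23 (12.5 ± 2.31) and Tjp1 (12.02 ± 0.908). The ranges of F11r and Cldn2, of F11r and Cldn4, of Cldn2 and Cldn4, of Ocln and Cldn23, and of Cldn23 and Tjp1 overlapped. Within each library F11r still stood above Cldn2 and Ocln above Cldn23. The order of Cldn2 and Cldn4, that of F11r and Cldn4, and that of Cldn23 and Tjp1 changed between libraries. In WT Paneth cells Cldn3 stood first with 236 ± 21.7 per kb, followed by Cldn7 (192 ± 17.8), Cldn15 (129.8 ± 3.66) and Cldn2 (79.8 ± 16.5). There Cldn4 and F11r overlapped, with 36.7 ± 3.30 and 36.0 ± 5.41 per kb, as did Tjp1 and Cldn23, with 6.49 ± 2.03 and 4.60 ± 1.14. In GRKO non-Paneth cells Cldn4 stood eighth of the 9 genes, with 10.4 ± 1.06 per kb.

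Cldn2 was the one member that was higher in WT Paneth cells and higher again with GRKO in non-Paneth cells. The WT Paneth libraries had 211, 321 and 291 TMM-scaled CPM, and those of WT non-Paneth cells 156, 181 and 179. With GRKO, non-Paneth libraries had 275, 316 and 255 and Paneth libraries 267, 379 and 276. The WT non-Paneth libraries therefore lay below the 9 others. On the log2 scale, Cldn2 was 0.67 higher in WT Paneth than in WT non-Paneth cells (SE 0.169) and 0.71 higher in GRKO than in WT non-Paneth cells (SE 0.168), and it passed the threshold in both. When only library totals were used for scaling, the first of these differences was -0.05, with the median of all genes at -0.68, so that Cldn2 stood above the median gene on both scales but its direction depends on the scaling. Between GRKO and WT Paneth cells the difference was 0.17 (SE 0.168) and did not pass.

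Cldn15, the other channel-forming claudin, had the reverse order between the fractions. It had 287, 287 and 273 TMM-scaled CPM in WT Paneth and 454, 476 and 485 in WT non-Paneth libraries. It had 286, 323 and 275 in GRKO Paneth and 401, 375 and 371 in GRKO non-Paneth libraries. Both Paneth groups lay below both non-Paneth groups. The log2 difference between Paneth and non-Paneth cells was -0.74 (SE 0.109) in WT and -0.37 (SE 0.108) in GRKO mice. GRKO non-Paneth cells were lower than WT non-Paneth cells by a difference of -0.30 (SE 0.108). All 3 passed, but the call in GRKO mice was lost without GRKO Paneth library 3 (-0.33) or without any 1 of the GRKO non-Paneth libraries (-0.30 to -0.25), and that between genotypes without WT non-Paneth library 2 (-0.34) or GRKO non-Paneth library 2 (-0.35) or 3 (-0.33), as well as without both WT libraries numbered 2 (-0.30) and with library totals only (-0.02).

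The ratio of these claudins within a library does not depend on the scaling between libraries. Per kilobase, Cldn2 stood to Cldn15 as 0.231 ± 0.0123 (SD, n = 3) in WT non-Paneth cells and as 0.469 ± 0.0564 in GRKO non-Paneth cells. The ratio was 0.616 ± 0.131 in WT Paneth cells and 0.657 ± 0.0780 in GRKO Paneth cells. No WT non-Paneth library reached the lowest ratio of any other group, 0.435. The pairs of genes for such ratios were picked after the levels had been seen, and no test was made on them.

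Cldn4, which is mostly counted among the sealing claudins, showed the largest difference between genotypes of the 9 genes. Non-Paneth libraries of WT mice had 71.4, 82.9 and 103 TMM-scaled CPM, against 19.1, 20.7 and 16.9 for those of GRKO mice. The WT and GRKO non-Paneth libraries were far apart, and those of GRKO non-Paneth cells lay below all other libraries. In Paneth cells it had 59.96, 71.7 and 68.1 in WT and 68.8, 79.7 and 73.0 in GRKO libraries, which overlap. The log2 difference of GRKO against WT was -2.18 (SE 0.146) in non-Paneth cells, a 4.54-fold lower level, and 0.15 (SE 0.141) in Paneth cells, with the first past the threshold. The difference of these differences was 2.33 (SE 0.201) and passed as well. GRKO Paneth cells stood 1.97 (SE 0.146) above GRKO non-Paneth cells, a difference that passed, whereas WT Paneth cells stood below WT non-Paneth cells by -0.37 (SE 0.140). This last difference passed although the libraries of both groups overlap, and its call was lost without WT Paneth library 1 (-0.30) or 3 (-0.39), without WT non-Paneth library 2 (-0.30) or 3 (-0.13), and without both WT libraries numbered 2 (-0.43).

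Cldn3, close to Cldn4 on the chromosome, passed in none of the comparisons. Its levels were 346, 347 and 333 TMM-scaled CPM in non-Paneth libraries of WT mice, 274, 287 and 277 in those of GRKO mice, 318, 306 and 266 in WT Paneth and 299, 315 and 239 in GRKO Paneth libraries. The WT and GRKO non-Paneth libraries did not overlap, but with a log2 difference of -0.29 (SE 0.123) Cldn3 did not pass. It passed there with DESeq2 (-0.35), with RLE factors (-0.35), with a minimum of 10 counts in every library of 1 group (-0.35) and with only the groups compared in the fit (-0.29). The per-kilobase ratio of Cldn3 to Cldn4 was 5.90 ± 1.18 (SD, n = 3) in WT non-Paneth, 21.4 ± 1.94 in GRKO non-Paneth, 6.48 ± 1.05 in WT Paneth and 5.56 ± 0.781 in GRKO Paneth cells. Only GRKO non-Paneth cells stood apart in this ratio.

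Cldn7, a claudin that also lies along the lateral membrane, was the most abundant member by CPM. Non-Paneth libraries had 741, 839 and 775 TMM-scaled CPM with WT and 547, 591 and 579.6 with GRKO, against 438, 417 and 365 in WT Paneth and 405, 394 and 351 in GRKO Paneth libraries. The Paneth libraries of both genotypes lay together at the bottom and the WT non-Paneth libraries at the top. The log2 difference between Paneth and non-Paneth cells was -0.95 (SE 0.119) in WT and -0.58 (SE 0.119) in GRKO mice, and that between GRKO and WT non-Paneth cells was -0.46 (SE 0.118). All 3 passed, and the last was lost with library totals only (-0.17), with no filter on low counts (-0.42) and without both WT libraries numbered 2 (-0.41).

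Cldn23, a claudin of little known function, was the least abundant member, with 18.3, 26.0 and 25.2 TMM-scaled CPM in non-Paneth libraries of WT mice and 14.9, 14.9 and 12.8 in those of GRKO mice. It had 10.5, 8.79 and 6.27 in WT Paneth and 7.13, 8.11 and 6.15 in GRKO Paneth libraries. The order of the groups was that of Cldn7. Its log2 difference between Paneth and non-Paneth cells was -1.44 (SE 0.198) in WT, the largest of the members in WT mice, and -0.99 (SE 0.199) in GRKO mice. The same difference between genotypes in non-Paneth cells was -0.71 (SE 0.183). All 3 passed, and the last one was lost with library totals only (-0.42).

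**Figure D1:**
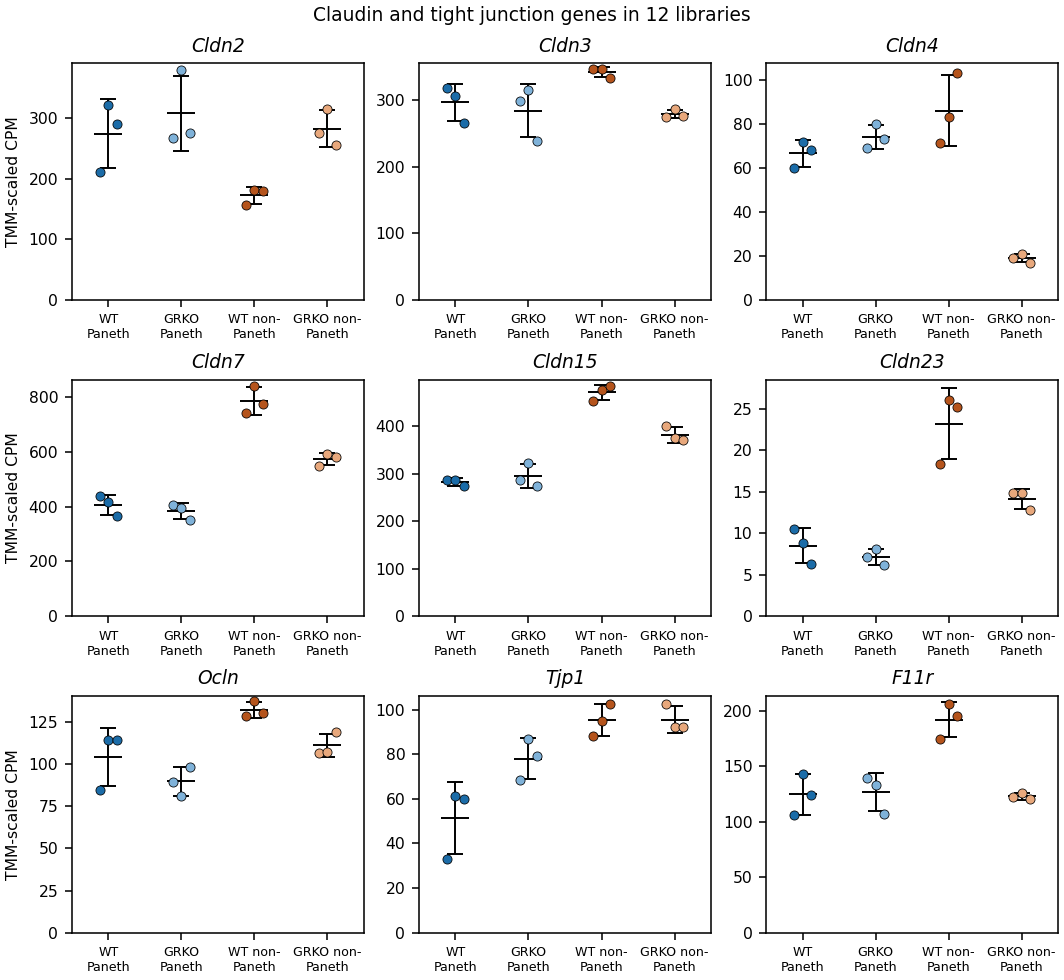
Levels of the 9 genes in TMM-scaled CPM (y axes, each from 0), with 1 point per library, grouped along the x axis by genotype and sorted fraction, and bars for the mean ± SD of 3 libraries. Cldn4 sits at 16.9 to 20.7 in GRKO non-Paneth cells and at 59.96 or above in the 9 other libraries, while Cldn2 is lowest in WT non-Paneth cells.

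Ocln, the gene of occludin, had 129, 138 and 131 TMM-scaled CPM in non-Paneth libraries of WT mice and 107, 108 and 119 in those of GRKO mice. It had 84.8, 115 and 114 in WT Paneth and 89.7, 81.4 and 98.6 in GRKO Paneth libraries. The non-Paneth libraries of WT mice were the highest of all. Only the difference between Paneth and non-Paneth cells of WT mice passed, with -0.34 on the log2 scale (SE 0.129), and it was lost without WT Paneth library 1 (-0.21), without WT non-Paneth library 1 (-0.28), 2 (-0.22) or 3 (-0.27) and without both WT libraries numbered 2 (-0.37). The genotypes differed by -0.25 in non-Paneth cells (SE 0.128), which did not pass.

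F11r, the gene of a junctional adhesion molecule of the immunoglobulin superfamily, was high in WT non-Paneth cells only. It had 175, 207 and 195 TMM-scaled CPM there, against 122, 126 and 120.3 in GRKO non-Paneth libraries. It had 106, 144 and 125 in WT Paneth and 139.7, 133 and 107 in GRKO Paneth libraries. The GRKO non-Paneth libraries lay within the range of the Paneth libraries. The log2 difference was -0.63 (SE 0.134) between WT Paneth and WT non-Paneth cells and -0.65 (SE 0.133) between GRKO and WT non-Paneth cells, and both passed. The effect of GRKO differed between the fractions by 0.67 (SE 0.188), which passed but was lost without GRKO Paneth library 2 (0.63) or WT non-Paneth library 2 (0.62) and with library totals only (0.40).

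Tjp1, the scaffold that binds claudins and occludin on the cytoplasmic side, was the one member with higher values in GRKO than in WT Paneth libraries and no overlap. It had 32.9, 61.4 and 60.02 TMM-scaled CPM in WT Paneth and 68.3, 86.9 and 79.1 in GRKO Paneth libraries. Non-Paneth libraries had 88.2, 94.9 and 103 with WT and 102, 92.0 and 92.1 with GRKO. WT Paneth library 1 was low and the non-Paneth groups overlapped. The log2 difference between GRKO and WT Paneth cells was 0.61 (SE 0.187) and did not pass. It passed with DESeq2 (0.60), with no filter on low counts (0.62) and without GRKO Paneth library 1 (0.70). It also passed with a replicate block (0.62), which joined GRKO and WT libraries of equal number, a pairing that no label states. Without the low WT Paneth library 1 it was 0.37 (SE 0.127) and did not pass. Ptprc and the tuft cell markers had their highest values in GRKO Paneth libraries too, and their part in this difference was not tested. WT Paneth cells were lower than WT non-Paneth cells by -0.89 (SE 0.186), which passed.

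Counted over the 9 members, 8 passed in WT Paneth against WT non-Paneth cells, where 50.7% of all genes did. Of these, 1 was higher and 7 were lower in Paneth cells, beside 24.0% and 26.7% of all genes. In GRKO mice 4 passed between the fractions, 1 higher and 3 lower, beside 39.2% of all genes (17.9% higher, 21.2% lower). Between GRKO and WT non-Paneth cells 6 passed, 1 higher and 5 lower, beside 37.3% (17.5% higher, 19.8% lower). Between GRKO and WT Paneth cells none passed with edgeR, beside 3.22% (1.70% higher, 1.52% lower), while 1 had an unadjusted p under 0.05 and DESeq2 called 1, in both cases Tjp1. The effect of GRKO differed between the fractions for 2, both with a more positive effect in Paneth cells, beside 18.7% (11.5% and 7.27% in the positive and the negative direction). Because the choice of the members had these values in view, nothing is read from their counts. With library totals only, the median of all genes moved from 0.01 to -0.68 between WT fractions and from -0.08 to -1.05 between GRKO fractions, and from 0.02 to 0.31 between genotypes in non-Paneth cells. On that scale all 9 members passed between the GRKO fractions and 3 between genotypes in non-Paneth cells. The shares of all genes called on that scale, and with DESeq2, are not given here, so nothing is read from these counts either.

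**Figure D2:**
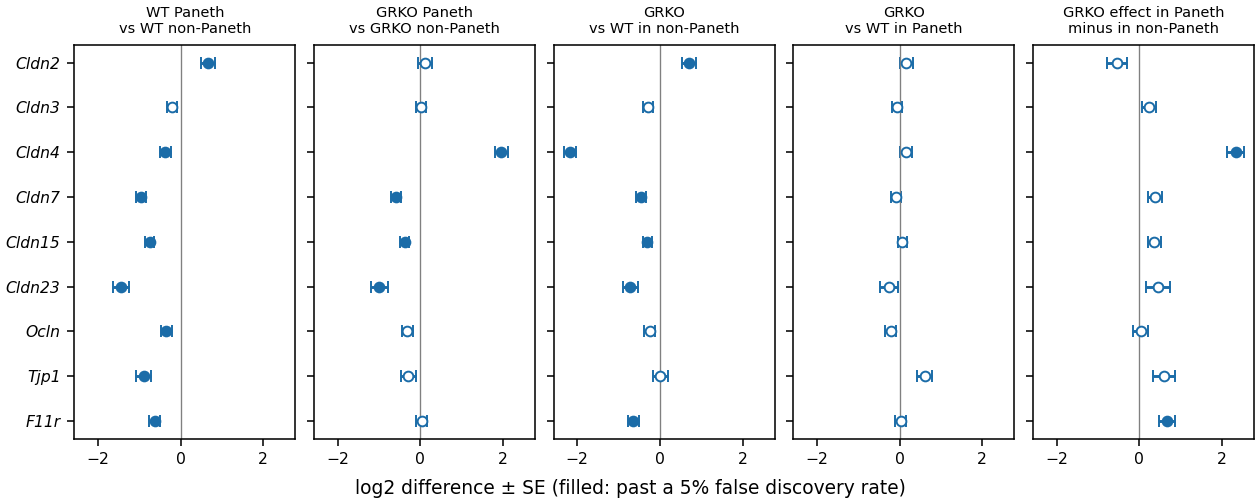
Log2 difference ± SE (x axis) of each of the 9 genes (y axis) in 4 comparisons and in the difference of the GRKO effect between the fractions. Filled points passed a false discovery rate of 5% over 13057 genes, and Cldn4 lies at -2.18 in the comparison of genotypes in non-Paneth cells and at 0.15 in that of Paneth cells.

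Cell type markers moved with the genotype in the non-Paneth fraction. The summed level of 8 enterocyte markers (Alpi, Apoa1, Apoa4, Fabp1, Fabp2, Sis, Lct and Anpep) lay between 26140 and 27213 TMM-scaled CPM in non-Paneth libraries of WT mice and between 4819 and 6425 in those of GRKO mice. Of the 8, 3 passed, all lower, but for each of the 8 every GRKO non-Paneth library lay below every WT non-Paneth library. Their median log2 difference was -2.29. A sum of 3 proliferation markers was 501 to 572 in WT and 864 to 953 in GRKO non-Paneth libraries, and that of 3 tuft cell markers 2.10 to 6.69 and 46.8 to 187, and all 3 of each list passed as higher in GRKO. The sum of 4 stem cell markers was 3336 to 4552 in WT and 4318 to 5646 in GRKO libraries, with 3 of the 4 passing as higher, and that of 6 goblet cell markers 6915 to 14749 and 5843 to 8047, with 2 passing as lower. Their part in the differences of Cldn2, Cldn4, Cldn7, Cldn15, Cldn23 and F11r between the genotypes was not tested. Between the WT fractions all 8 enterocyte markers and 3 enteroendocrine markers passed as lower in Paneth cells. All 4 stem cell markers, with a sum of 7360 to 7883 in WT Paneth libraries, and all 3 tuft cell markers passed as higher there. Of the 6 goblet cell markers 1 passed as higher and 3 as lower, and no proliferation marker passed. The part of these markers in the differences between the fractions was not tested either. The enterocyte sum in Paneth libraries of both genotypes lay between 367 and 2048, with the highest value in WT Paneth library 2, and Cldn4 was 59.96 to 79.7 there, above all GRKO non-Paneth libraries. Tuft cell markers summed to 119 to 317 in WT Paneth and 304 to 795 in GRKO Paneth libraries.

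**Figure D3:**
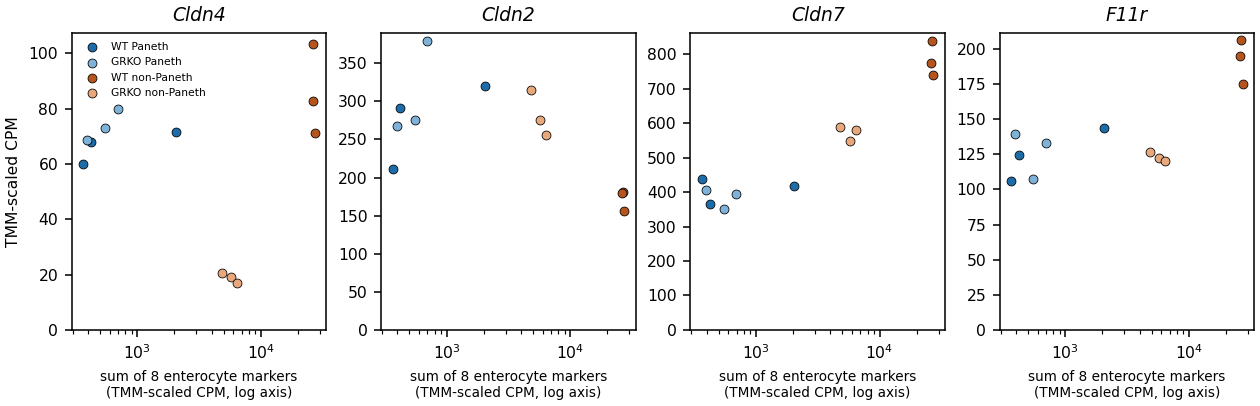
Levels of Cldn4, Cldn2, Cldn7 and F11r in TMM-scaled CPM (y axes) against the sum of 8 enterocyte markers (x axes, log scale), with 1 point per library coloured by group. GRKO non-Paneth libraries lie between the Paneth and the WT non-Paneth libraries in the marker sum and for Cldn7, and below both for Cldn4.

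The 6 claudins among the members made up nearly all claudin transcripts. Of 31 claudin genes in the table, 17 had at least 1 count and 10 passed the filter on low counts. Per kilobase, the 6 members took 98.9 ± 0.275% of the claudin reads in WT Paneth, 98.8 ± 0.302% in GRKO Paneth, 99.4 ± 0.0395% in WT non-Paneth and 99.2 ± 0.0534% in GRKO non-Paneth cells (SD, n = 3). The share is taken within a library and so does not depend on the scaling.

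In WT non-Paneth cells Cldn7 took 38.1 ± 1.11% of the claudin reads per kilobase, Cldn3 27.9 ± 1.35%, Cldn15 22.2 ± 0.528%, Cldn2 5.13 ± 0.238% and Cldn4 4.84 ± 0.833%. In GRKO non-Paneth cells Cldn2 took 10.6 ± 0.881% and Cldn4 1.34 ± 0.108%, and the libraries of these groups did not overlap for either gene. The share of Cldn3 was 28.6 ± 0.224% there, within the range of the WT libraries. In WT Paneth cells Cldn3 took 34.3 ± 1.75%, Cldn7 28.001 ± 1.503%, Cldn15 18.9 ± 0.555%, Cldn2 11.6 ± 2.46% and Cldn4 5.35 ± 0.560%. In GRKO Paneth cells the same shares were 32.9 ± 1.83%, 26.6 ± 1.54%, 19.8 ± 0.725%, 13.0 ± 1.71% and 5.96 ± 0.530%, and the libraries of both genotypes overlapped for all 5.

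**Figure D4:**
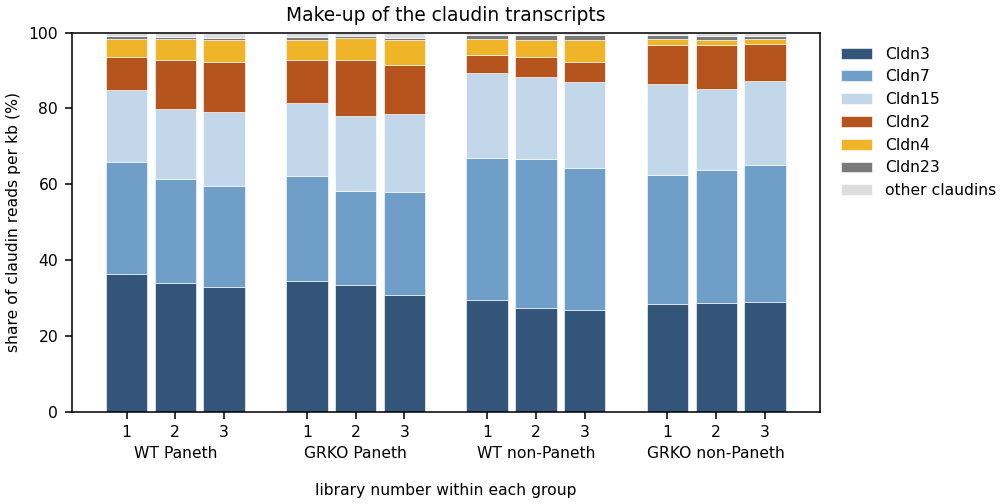
Share of each claudin in all claudin reads per kilobase of exonic length (y axis, percent) in each of the 12 libraries (x axis, by group). Cldn2 takes 4.86 to 5.31% in WT non-Paneth libraries and 9.76 to 11.5% in GRKO non-Paneth libraries, where Cldn4 takes 1.22 to 1.43%.

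Among the other claudins, Cldn12 was the only one above 5 TMM-scaled CPM. Its means were 57.2 ± 13.3 in WT Paneth, 50.9 ± 7.77 in GRKO Paneth, 51.3 ± 4.67 in WT non-Paneth and 54.4 ± 2.19 in GRKO non-Paneth cells, and it did not pass in any comparison (edgeR, adjusted p from 0.449 to 0.703). Cldn9 and Cldn14, singled out after their values were seen, were near the limit of detection. Cldn14 had 21 counts over the 3 WT Paneth libraries, 37 over GRKO Paneth, 21 over GRKO non-Paneth and 0 over WT non-Paneth libraries. With the WT non-Paneth libraries together set to a floor of 3 counts, it was at least 13.4-fold higher in WT Paneth and at least 5.27-fold higher in GRKO non-Paneth than in WT non-Paneth cells, a limit that covers counting error only. Cldn9 had 21 and 86 counts over the WT and GRKO Paneth libraries and 3 over each non-Paneth group. Cldn5, known from endothelium, had 0 counts in all libraries.

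A wider list of tight junction genes, written with earlier results of these data known, held 83 genes, of which 81 were in the table and 53 were tested. Leaving out the 9 members, 33 of 44 passed between WT Paneth and WT non-Paneth cells, 10 higher and 23 lower in Paneth cells, beside 50.7% of all genes (24.0% higher, 26.7% lower). In GRKO mice 19 passed, 9 higher and 10 lower, beside 39.2% (17.9% higher, 21.2% lower). Their median log2 difference was -0.40 in WT and -0.16 in GRKO mice, beside 0.01 and -0.08 over all genes. With library totals only, the split over all 53 moved from 11 higher and 30 lower to 5 and 38 in WT, and from 10 and 13 to 3 and 43 in GRKO mice. The median of all genes fell on that scale too, as given above, and the shares of all genes called there are not given here.

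Of 15 regulators tested, 8 were lower and 4 higher in WT Paneth cells, beside 26.7% lower and 24.0% higher over all genes. Those with the largest differences towards lower values were Mylk, Arhgef2, Arhgap17 and Spint1. Mylk, the myosin light chain kinase, had 8.65 to 11.3 TMM-scaled CPM in WT Paneth and 143 to 182 in WT non-Paneth libraries, a log2 difference of -3.95 (SE 0.188, edgeR, adjusted p = 9.04e-10). Arhgef2, an activator of RhoA, differed by -2.10 (adjusted p = 1.93e-07) and Arhgap17, which acts on the GTPase Cdc42, by -1.72 (adjusted p = 1.97e-08). Spint1, an inhibitor of the membrane protease matriptase, differed by -1.67 (adjusted p = 4.93e-08). The 4 higher regulators were Wnk4 (1.40), Prss8 (0.83), Spint2 (0.42) and Ybx3 (0.41).

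Cingulin and paracingulin, scaffold proteins with a shared domain structure, went in opposite directions. Cgn, the gene of cingulin, had 49.0 to 54.9 TMM-scaled CPM in WT Paneth and 129 to 179 in WT non-Paneth libraries, a log2 difference of -1.56 (SE 0.157, edgeR, adjusted p = 8.90e-07). Cgnl1, the gene of paracingulin, had 19.4 to 22.7 and 2.55 to 4.01, a difference of 2.65 (SE 0.186, edgeR, adjusted p = 2.36e-08). Neither gene's libraries overlapped between these groups. Of 18 scaffold genes tested, Tjp1 included, 12 were lower and 2 higher in WT Paneth cells, beside the same 26.7% and 24.0% over all genes. Tjp3, which encodes ZO-3, was lower with Tjp1, by -0.68 (adjusted p = 0.000267).

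Among membrane proteins other than claudins, 6 of 10 were lower and 2 higher in WT Paneth cells, Ocln and F11r included, again beside 26.7% and 24.0% of all genes. The higher ones were Esam, an adhesion molecule, with a log2 difference of 2.15 (SE 0.246, edgeR, adjusted p = 3.29e-06), and Ildr1, a protein of junctions where 3 cells meet, with 1.59 (SE 0.419, adjusted p = 0.00799). Igsf5, also called JAM4, differed by -1.11 (adjusted p = 0.000416), Cxadr, the coxsackievirus and adenovirus receptor, by -0.80 (adjusted p = 0.000268) and Marveld3, a relative of occludin, by -0.62 (adjusted p = 0.00335). Marveld2, the gene of tricellulin, differed by -0.39 (adjusted p = 0.0192).

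Between GRKO and WT non-Paneth cells, 22 of the 44 tight junction genes other than the members passed, 7 higher and 15 lower in GRKO, beside 37.3% of all genes (17.5% higher, 19.8% lower), with a median log2 difference of -0.15 beside 0.02 over all genes. With library totals only, the split over all 53 moved from 8 higher and 20 lower to 13 and 12. The median of all genes rose on that scale, as given above, and the shares of all genes called there are not given here. Arhgef2 was lower by -1.44 (SE 0.172, edgeR, adjusted p = 3.51e-05), Mylk by -1.09 (SE 0.160, adjusted p = 0.000143), Tjap1 by -1.05 (adjusted p = 0.000830) and Igsf5 by -0.97 (SE 0.200, adjusted p = 0.00166). Cgn was lower by -0.77 (adjusted p = 0.00130), Marveld3 by -0.58 (adjusted p = 0.00675) and Crb3, a protein of the apical polarity complex, by -0.69 (adjusted p = 0.00110). Cgnl1 was higher by 0.81 (adjusted p = 0.00342) and Ybx3, also known as ZONAB, a factor that binds ZO-1, by 0.80 (adjusted p = 6.07e-05). The part of the enterocyte, proliferation and tuft cell markers, which moved as given above, in these differences was not tested.

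In Paneth cells, none of the 44 passed between the genotypes with edgeR, although 14 had an unadjusted p under 0.05, beside 3492 of 13057 genes. DESeq2 called 6 of all 53 (Afdn, Mylk, Pard3, Pard6b, Tjp1 and Ybx3), and without GRKO Paneth library 1 edgeR called 5 (Afdn, Magi1, Pard3, Pard6b and Tjp1). Their log2 differences were all above 0, from 0.25 to 0.62 in DESeq2 and from 0.42 to 0.70 in edgeR without that library. The shares of all genes called under these settings are not given here, so nothing is read from these calls. Of the 44 genes, 32 had a log2 difference above 0, with a median of 0.20 beside 0.03 over all genes.

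**Figure D5:**
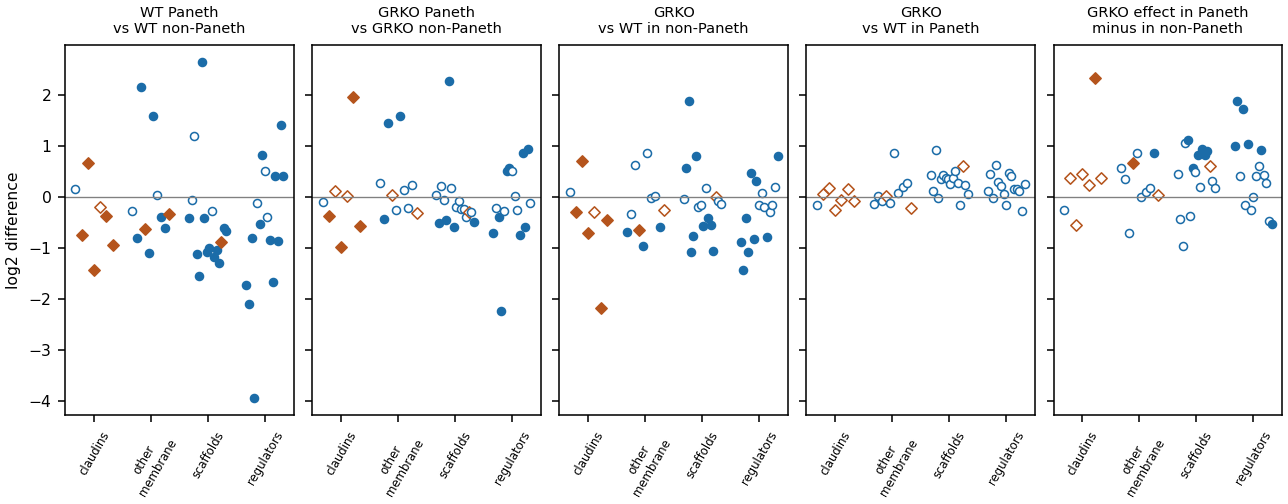
Log2 difference (y axis) of 48 of the 53 tested tight junction genes, those with at least 5 TMM-scaled CPM in a group, by their role (x axis), in 4 comparisons and in the difference of the GRKO effect between the fractions. Filled symbols passed a false discovery rate of 5%, diamonds are the 9 members, and in the comparison of GRKO with WT Paneth cells no symbol is filled.

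The genes whose log2 levels followed each member most closely over the 12 libraries were listed as a description. The libraries share their groups, so that the large difference between the fractions enters each of these values. For Cldn4 they were Ormdl3 (Pearson r = 0.946), Hpgd (0.936) and Guca2b (0.936), the last of which encodes uroguanylin. For F11r they were H2-K1 (0.976) and H2-D1 (0.961), which encode class I histocompatibility antigens, and Cd151 (0.959). For Cldn2 they were Adgrg2 (0.945) and Gatc (0.941). For Cldn7 they were Esrra (0.991), Slc25a3 (0.989) and Prr13 (0.988), for Cldn15 Fam234a (0.993), Gpa33 (0.991) and Actb (0.991), and for Cldn23 Pdgfc (0.981), Cldn7 (0.981) and Resf1 (0.979). For Tjp1 they were Lrba (0.978), Cltc (0.978) and Pdcd6ip (0.975), for Ocln Fam76a (0.949), Pigl (0.937) and Xaf1 (0.931), and for Cldn3 Ranbp6 (0.944), Bglap3 (0.937) and Ier3 (0.924). Among the members themselves, Cldn7, Cldn15 and Cldn23 followed each other most closely, with r from 0.958 to 0.981, while Cldn2 was negatively related to each of the 8 others, with r from -0.73 to -0.06.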

How the data were processed

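RNA-seq of 12 libraries was used, 3 per group, with groups taken from the sample titles, since the genotype field of 6 samples contradicts its title. The authors trimmed reads with Trimmomatic 0.39, aligned them to mm39 with the annotation gencode v28 using STAR 2.7.10a, and deposited raw counts per gene, which leave out reads shared by several places or genes. Identifiers were named through GENCODE vM39 (54749 of 55414).

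Differences were tested on these deposited counts with edgeR 4.0.16 in R 4.3.3 (filterByExpr, TMM, glmQLFit with robust estimates, glmQLFTest), with 1 mean per group, all 12 libraries in 1 fit and a Benjamini-Hochberg threshold of 5% over 13057 genes. The procedure was also run on simulated counts, in which far fewer genes changed than were called in most comparisons here. That run therefore does not test the scaling under such broad changes. Alternatives were DESeq2 1.42.0, RLE factors, library totals only, scaling without Lyz1 and Defa genes, no filter, at least 10 counts in every library of 1 group, a replicate block, fits of the compared groups alone, a threshold of 1%, each library left out, levels as CPM of library totals and, chosen after seeing the data, both WT libraries numbered 2 left out. Deviations from the group means were correlated between the fractions for equal library numbers, which gave 0.35, 0.23 and 0.24 in WT mice. In GRKO mice they correlated at 0.01, 0.26 and 0.47. No reference from unequal numbers was computed, so these values do not decide whether equal numbers are pairs in either genotype. The main fit holds no term for such a pairing. Replicates differed by more than sampling noise (chi-square per degree of freedom 13.2 to 50.5).

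The members and lists were chosen with earlier results of these data known. Other junction genes were named from the 5 largest differences per direction, list and comparison, among genes past the threshold with at least 5 TMM-scaled CPM and no overlap of libraries, and for each member the 3 genes of most similar level. Tjp3 between WT fractions, and the alternative calls in Paneth cells, were named after their values were seen. Some genes that the rule names are not reported here. Promoters were read from GRCm39.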

Additional observations from a re-analysis of the deposited data

Results flagged for a closer look

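For 21 junction genes, the members and at most 5 others per list and direction with at least 5 TMM-scaled CPM in a group, the effect of GRKO in Paneth cells differed from that in non-Paneth cells, by the interaction term of the edgeR fit over all genes. The values are log2 differences of GRKO against WT in Paneth cells minus those in non-Paneth cells. Over the 53 tested tight junction genes, 14 passed with a value above 0 and 2 with a value below 0, beside 11.5% and 7.27% of all genes. With library totals only these were 8 and 3 genes, and the shares of all genes on that scale are not given here. Of the members, Cldn4 had 2.33 and F11r 0.67. Among scaffold and polarity proteins, Cgn had 1.11 (adjusted p = 0.00356), Pard6b 0.93 (adjusted p = 0.00814), Tjap1 0.90 (adjusted p = 0.0413), Patj 0.82 (adjusted p = 0.00688) and Pals1 0.81 (adjusted p = 0.0471). Marveld3, a membrane protein, had 0.86 (adjusted p = 0.0137). Among regulators, Arhgef2 had 1.89 (adjusted p = 0.000381), Mylk 1.72 (adjusted p = 0.000512), Prkcz 1.04 (adjusted p = 0.00198), Arhgap17 1.002 (adjusted p = 0.00125), Spint1 0.93 (adjusted p = 0.00287) and Ybx3 -0.53 (adjusted p = 0.0207). Among genes of adherens junctions and desmosomes, Cdh17 had 0.80 (adjusted p = 0.0275), Plekha7 0.76 (adjusted p = 0.00796), Ctnna1 0.62 (adjusted p = 0.0377), Ctnnd1 0.62 (adjusted p = 0.0306), Evpl 1.12 (adjusted p = 0.0418), Dsg2 0.81 (adjusted p = 0.0310) and Pkp3 0.78 (adjusted p = 0.00680). In non-Paneth cells the difference of GRKO against WT was below 0 for all but Ybx3, and those of Ctnna1 (-0.22), Ctnnd1 (-0.31) and Dsg2 (-0.16) did not pass. The genes were picked by a value from which this difference is subtracted, so its sign follows in part from the choice. Nothing is read from it. The summed enterocyte markers were lower in the same GRKO non-Paneth libraries, and their part in the differences of the GRKO effect was not tested.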

How the results depend on the processing

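The numbers below count the called genes of the 53 tested tight junction genes, members included, and log2 differences of the members. The shares of all genes called under the alternatives are not given here, so these counts are not set against all genes. With a replicate block the counts were 43 (WT fractions), 23 (GRKO fractions) and 28 (genotypes in non-Paneth cells), against 41, 23 and 28 without it. They were 1 (genotypes in Paneth cells, Tjp1) and 23 (difference of the GRKO effects), against 0 and 16. No label states that libraries of equal number are paired. Between genotypes, the block joined GRKO and WT libraries of equal number, whose deviations from the group means correlated at -0.10 to 0.17. The block brought the differences of the GRKO effect for Cldn2 (-0.54) and Tjp1 (0.64) past the threshold. With library totals only, 46 genes were called between GRKO fractions, and the sign turned for Cldn2 (-0.049) between WT fractions, for Cldn2 (-0.84), Cldn3 (-0.95) and F11r (-0.94) between GRKO fractions, for Ocln between genotypes in non-Paneth cells (0.038), and for Cldn3 (-0.049) and Ocln (-0.23) in the difference of the GRKO effects. With no filter on low counts, Cldn3 (-0.043) and F11r (-0.025) turned between GRKO fractions. Tjp1 turned between genotypes in non-Paneth cells with DESeq2 (-0.053), RLE factors (-0.053), at least 10 counts in every library of 1 group (-0.049) and without both WT libraries numbered 2 (-0.0020). Between genotypes in Paneth cells, at least 10 counts gave Cldn15 -0.0025 and F11r -0.035, and only the groups compared gave F11r -0.025. In that comparison DESeq2 called 6 genes, no filter 5, and leaving out 1 library 0 to 5. A threshold of 1% left 9 genes in the difference of the GRKO effects, and leaving out 1 library gave 10 (without WT non-Paneth library 2) to 17. Leaving out 1 library turned the sign of values near 0. Between GRKO fractions the ranges were -0.057 to 0.31 (Cldn2), -0.059 to 0.15 (Cldn3) and -0.038 to 0.17 (F11r). Between genotypes in non-Paneth cells the range was -0.10 to -0.00090 for Tjp1. Between genotypes in Paneth cells they were -0.011 to 0.30 (Cldn2), -0.14 to 0.051 (Cldn3), -0.0092 to 0.11 (Cldn15) and -0.080 to 0.14 (F11r), and for the difference of the GRKO effects -0.10 to 0.10 (Ocln). The cause of these changes was not tested. Of 765 differences of the members under all alternatives, 673 kept direction and call, 40 lost the call, 18 gained it and 34 turned sign. The calls of Cldn2 and Cldn4 between genotypes in non-Paneth cells and of Cldn4 between GRKO fractions were kept under all alternatives run. As CPM of library totals, 35 of 36 group levels of the members moved by more than 1 SD.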

Other observations

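Adherens junctions and desmosomes hold epithelial cells together below the tight junction. On the TMM scale, 8 of 12 genes of adherens junctions were lower and 2 higher in WT Paneth than in WT non-Paneth cells, and of 11 desmosome genes 8 were lower and 1 higher, beside 26.7% lower and 24.0% higher over all genes. Cdh17, the liver-intestine cadherin, had 289 to 483 TMM-scaled CPM in WT Paneth and 1135 to 1411 in WT non-Paneth libraries, a log2 difference of -1.69 (SE 0.170, edgeR, adjusted p = 8.26e-07). Cdh1, the gene of E-cadherin, differed less, by -0.41 (SE 0.131, adjusted p = 0.0162), and Ctnnb1, the gene of beta-catenin, by -0.24 (adjusted p = 0.126), which did not pass.

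Of these 23 genes, 2 passed between GRKO and WT Paneth cells with edgeR, beside 3.22% of all genes. Nectin1, an adhesion molecule of adherens junctions, had 29.8 to 36.2 TMM-scaled CPM in WT Paneth and 44.9 to 58.2 in GRKO Paneth libraries, a log2 difference of 0.64 (SE 0.137, adjusted p = 0.0443). Pkp1, a desmosomal plaque protein, had 57.2 to 67.0 and 81.7 to 101, a difference of 0.54 (SE 0.124, adjusted p = 0.0448). Both were also higher in GRKO than in WT non-Paneth cells, Nectin1 by 0.72 (adjusted p = 0.000862) and Pkp1 by 0.81 (adjusted p = 0.000177).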
